A study of Rattus norvegicus with 8 samples.

Results

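A group of 5 metabolic genes, some of them linked to the PGC-1 transcriptional programme, was followed in PC12 cells. This line derives from a rat adrenal medulla tumour. The genes are Coq10b, Lpin1, Ppargc1a, Esrra and Pdk4, and every probe set annotated with 1 of these symbols alone was taken. This gave 5 of 13810 named genes and 9 of the 31142 probe sets on the 2 chips. Chip A carried 5 of them, 1 for each gene, and chip B carried 4, namely 1 each for Lpin1 and Pdk4 and 2 for Ppargc1a. The genes were selected on the forskolin contrast of these same arrays, so their changes are given as a description and no p-value is printed for them. Where 1 of them is said to be called, nothing is read from the call. Total RNA of cells given forskolin, which activates adenylyl cyclase and so raises cyclic AMP, was set against RNA of cells without forskolin, described in the title of the series as an inactive control. There were 2 forskolin arrays and 2 arrays without forskolin on each chip, 8 in all. The sources used here state no dose, no exposure time and no further detail of the control, and they do not say that replicates were separate cultures or whether the chips shared RNA. The p-values quoted for other genes, and the standard errors and intervals given for any gene, therefore measure only the spread between these arrays. This spread may be technical. The intervals of the 5 genes also take no account of their selection.

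Ppargc1a encodes PGC-1 alpha, a coactivator that docks on nuclear receptors and raises the expression of genes for mitochondria, fatty acid oxidation and, in the liver, glucose output. In mouse liver and brown fat its own gene is switched on by cyclic AMP through CREB. Esrra encodes the estrogen-related receptor alpha, a partner through which PGC-1 alpha acts on mitochondrial genes. Pdk4 encodes a kinase that switches off pyruvate dehydrogenase and is a known target of both. Lpin1 encodes lipin 1, a phosphatidate phosphatase that makes diacylglycerol and that, in mouse liver, also works with PGC-1 alpha as a coactivator. Coq10b encodes a mitochondrial protein of the COQ10 family, whose yeast relative binds coenzyme Q and is needed for its function in respiration.

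The promoters of the 3 genes on which the results turn are shown because cyclic AMP acts on many genes through CREB, which binds the element TGACGTCA and its half-site TGACG. The sequences are from RefSeq (rat build GRCr8) and run from 250 bases before to 50 bases after the annotated start, 5′ to 3′ on the strand of the gene. All 5 genes matched the RefSeq table. Capitals mark TGACGTCA, TGACG and TGATGTCA on either strand. The first 2 promoters belong to the genes whose levels were higher with forskolin, and the third to the gene best known for its element. Coq10b lies at chr9:64047918-64048217 on the plus strand, Lpin1 at chr6:45108893-45109192 on the minus strand, and Ppargc1a at chr14:63634058-63634357 on the plus strand.
Coq10b: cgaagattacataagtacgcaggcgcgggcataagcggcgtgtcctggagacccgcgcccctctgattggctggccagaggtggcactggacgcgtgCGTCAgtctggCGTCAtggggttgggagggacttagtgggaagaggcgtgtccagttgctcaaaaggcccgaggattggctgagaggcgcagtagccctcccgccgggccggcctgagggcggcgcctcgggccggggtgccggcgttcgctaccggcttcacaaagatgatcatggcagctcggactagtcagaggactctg
Lpin1: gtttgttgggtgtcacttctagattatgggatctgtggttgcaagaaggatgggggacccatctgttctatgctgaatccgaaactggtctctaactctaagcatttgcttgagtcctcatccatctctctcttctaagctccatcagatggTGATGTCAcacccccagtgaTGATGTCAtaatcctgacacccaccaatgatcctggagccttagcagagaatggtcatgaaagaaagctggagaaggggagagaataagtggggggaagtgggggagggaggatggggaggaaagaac
Ppargc1a: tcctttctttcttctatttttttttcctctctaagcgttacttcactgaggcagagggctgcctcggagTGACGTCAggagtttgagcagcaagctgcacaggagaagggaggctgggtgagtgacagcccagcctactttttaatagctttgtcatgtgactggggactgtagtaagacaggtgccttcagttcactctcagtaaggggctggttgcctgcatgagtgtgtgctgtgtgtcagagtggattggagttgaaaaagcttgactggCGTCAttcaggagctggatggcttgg

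The Ppargc1a promoter held the full element TGACGTCA, with its first base 181 bases before the start, and a further half-site read as CGTCA at position 25 after the start. Coq10b held no full element but 2 half-sites, both read as CGTCA, which began 153 and 142 bases before the start. Lpin1 held neither. It held TGATGTCA, which was searched only after these promoters had been read, at 98 and at 78 bases before the start. Over 33469 rat promoters of the same length, 1.83% held TGACGTCA, 21.2% held TGACG and 4.34% held TGATGTCA, on either strand. Each full element also counts as a half-site on both strands. TCAAGGTCA, the element of the estrogen-related receptors, was in 0.433% of promoters and in none of the 5 windows. The Esrra and Pdk4 windows held none of these motifs. A match describes letters in this window and is not evidence of a bound site.

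Coq10b was 2.60-fold and Lpin1 1.69-fold and 1.47-fold higher on the forskolin arrays, while Ppargc1a, Esrra and Pdk4 had differences of -0.17 to 0.08 (log2) over their 6 probe sets, with both forskolin arrays slightly higher for Esrra. Of the 9 probe sets, 6 passed a filter that left out probe sets whose mean linear value was under the 30th percentile of the chip, and these were tested in a fit of the whole chip with limma. On chip A, 2 of the 4 tested probe sets were called higher at an adjusted p under 0.05 and 0 lower, where 2.03% of 11106 tested probe sets were called higher and 1.26% lower. On chip B, 0 of the 2 tested probe sets were called, where 0.150% of 10693 were called higher and 0.00935% lower. Among the alternatives that kept all arrays, the Lpin1 probe set of chip B was called higher only under quantile normalization. With 1 array left out its difference ranged from 0.44 to 0.68 (log2), so it depends on single arrays. The forskolin arrays both lay above the other arrays for 3 of the 4 tested probe sets on chip A, against 20.4% of all tested probe sets, and for 1 of 2 on chip B, against 10.4%. Nothing is read from these counts, since this contrast chose the genes.

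**Figure D1:**
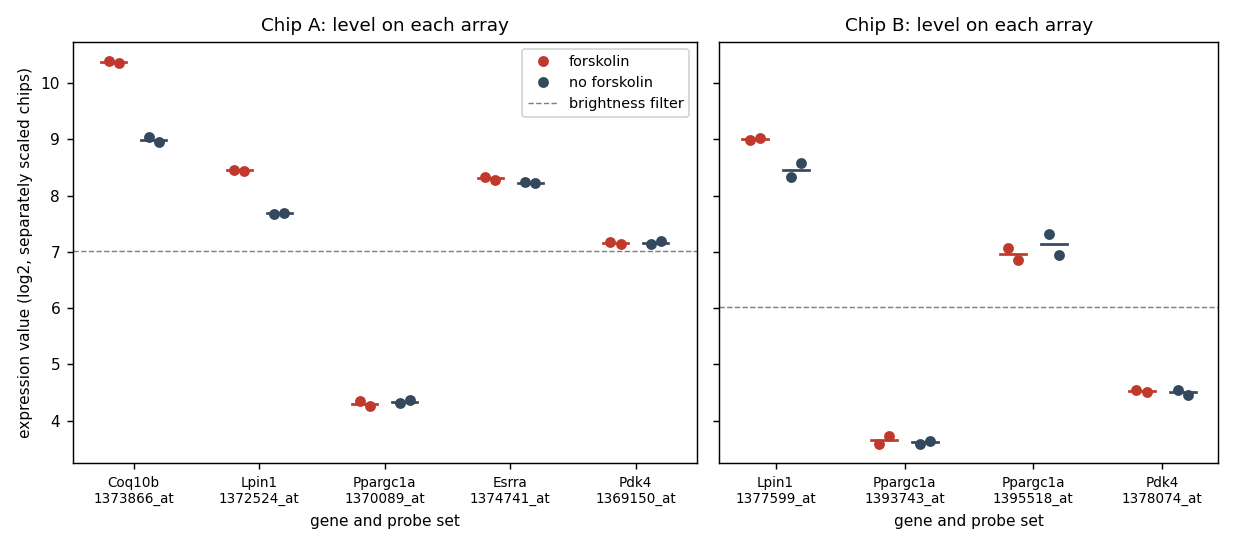
Expression value (log2) of each probe set of the 5 genes on each array, forskolin left of no forskolin; points are arrays, short lines the mean of 2 arrays, and the dashed line is the brightness filter of the chip (7.02 for chip A, 6.02 for chip B). Coq10b and both Lpin1 probe sets have forskolin arrays well above the others, and 3 probe sets, of Ppargc1a and Pdk4, lie below the line.

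Coq10b (probe set 1373866_at, chip A) measured 10.40 and 10.36 (log2) on the forskolin arrays, against 9.04 and 8.95 on the arrays without forskolin. The groups were far apart, and the lowest forskolin array exceeded the highest array without forskolin by 1.31. The level averaged 10.38 ± 0.03 with forskolin and 9.00 ± 0.06 without it (log2, SD, n = 2 each), a difference of 1.38 ± 0.04 (log2, SE) or 2.60-fold, with a 95% interval of 2.43-fold to 2.79-fold. Among the 11106 tested probe sets of chip A, 18 had a larger positive difference. Coq10b has no probe set on chip B, so its value rests on 1 probe set. Its mean level without forskolin lay well above the filter (7.02), so the size of the difference does not rest on a level near the lower end of the chip.

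Lpin1 was measured on both chips. On chip A (1372524_at) it measured 8.45 and 8.45 (log2) on the forskolin arrays, against 7.68 and 7.69 without forskolin. The arrays within each group were nearly equal and the groups were 0.75 apart at their closest. The difference was 0.76 ± 0.04 (log2, SE, n = 2 each), or 1.69-fold with a 95% interval of 1.58-fold to 1.81-fold, and 58 tested probe sets of chip A had a larger positive difference.

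On chip B (1377599_at) Lpin1 measured 8.99 and 9.03 (log2) on the forskolin arrays, against 8.33 and 8.57 without forskolin. The groups again did not overlap, but the arrays without forskolin were further apart than on chip A, with an SD of 0.17 against 0.01. The difference was 0.56 ± 0.10 (log2, SE, n = 2 each), or 1.47-fold with a 95% interval of 1.25-fold to 1.73-fold. The change on chip A exceeded that on chip B by 0.20 ± 0.11 (log2, SE of the difference), so the probe sets gave the same direction and their sizes differed by less than 2 of these standard errors. The median SE over tested probe sets was 0.09 on chip B and 0.04 on chip A.

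Ppargc1a was measured by 3 probe sets, and the groups overlapped on each of them. On chip A (1370089_at) it measured 4.35 and 4.26 (log2) with forskolin, against 4.31 and 4.36 without it. This probe set lay at the 1.59th percentile of the chip's linear means, far below the filter, and how far it stands above background is not known, so no fold is given. On chip B, 1393743_at was as dim, at the 2.68th percentile, with 3.58 and 3.72 on the forskolin arrays, against 3.59 and 3.63 on the arrays without forskolin.

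The third Ppargc1a probe set (1395518_at, chip B) lay at the 57.5th percentile and was the only one tested. It measured 7.07 and 6.85 (log2) with forskolin, against 7.33 and 6.94 without it. The groups overlapped, and the higher array of each group was replicate 1. The difference was -0.17 ± 0.14 (log2, SE, n = 2 each), with a 95% interval of -0.50 to 0.15. It was 0.02 without no forskolin replicate 1 and -0.36 without no forskolin replicate 2. The 3 probe sets thus disagree on whether the transcript is above the filter, and detection calls were not used here.

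Esrra (1374741_at, chip A) measured 8.33 and 8.29 (log2) with forskolin, against 8.25 and 8.22 without it. The forskolin arrays were both higher, by only 0.04 at the closest. The difference was 0.08 ± 0.04 (log2, SE, n = 2 each), with a 95% interval of -0.02 to 0.18.

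Pdk4 on chip A (1369150_at) measured 7.17 and 7.13 (log2) with forskolin, against 7.13 and 7.19 without it. The groups overlapped and lay just above the filter, at the 32.4th percentile. The difference was -0.01 ± 0.05 (log2, SE, n = 2 each), with a 95% interval of -0.12 to 0.11. On chip B (1378074_at) Pdk4 lay at the 9.19th percentile, below the filter, with 4.55 and 4.51 with forskolin, against 4.54 and 4.46 without it.

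**Figure D2:**
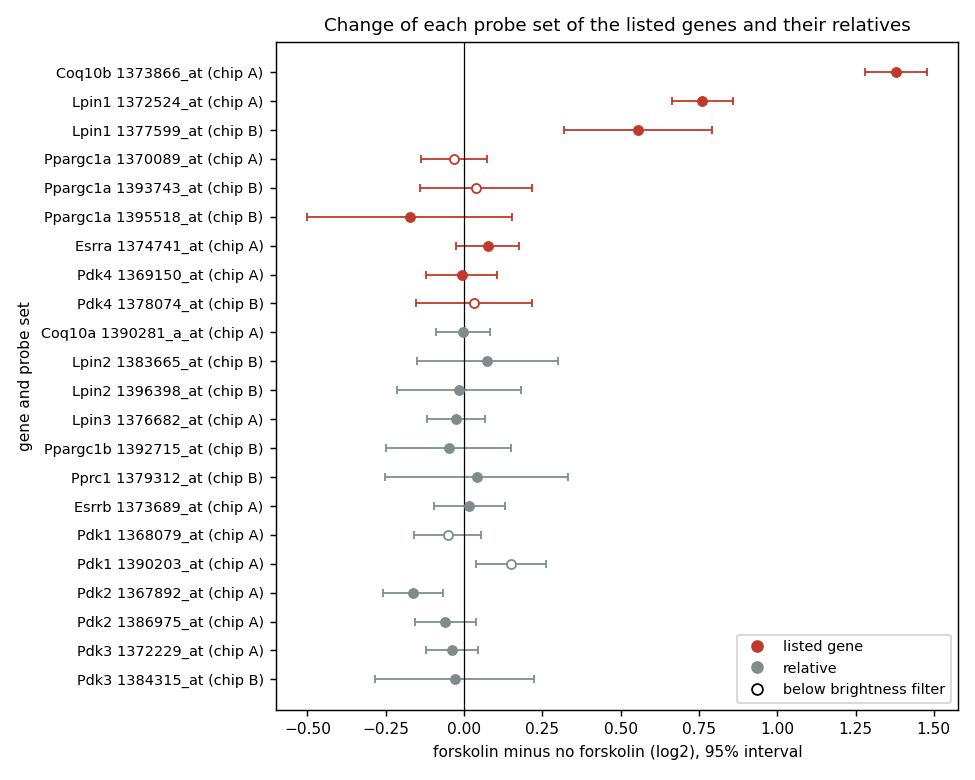
Difference between forskolin and no forskolin (log2) with its 95% interval for each probe set of the 5 genes (red) and of their relatives (grey); open points lie below the brightness filter. Coq10b at 1.38 and Lpin1 at 0.76 and 0.56 stand to the right of 0, and the intervals of the other red points include 0.

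Relatives of the 5 genes share their biochemistry. They were listed as relatives, with earlier results of these data known, and their probe sets were tested by limma over the whole chip. Of 13 probe sets of 9 relatives, 11 were tested, 0 were called and 1 had an unadjusted p under 0.05. Over all tested probe sets, 2.03% were called higher and 1.26% lower on chip A, and 0.150% and 0.00935% on chip B. At these shares nothing is read from 0 calls among 11. Coq10a, the other mammalian COQ10 gene, measured 9.81 and 9.80 (log2) with forskolin, against 9.78 and 9.83 without it, a difference of -0.00 ± 0.04 (limma adjusted p = 0.973). The lipin genes Lpin2 and Lpin3 differed by 0.07 and -0.02 on the 2 Lpin2 probe sets and by -0.03 for Lpin3. The PGC-1 relatives Ppargc1b and Pprc1, both on chip B, differed by -0.05 and 0.04, and Esrrb by 0.02.

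Among the kinases related to Pdk4, Pdk2 had the lowest limma adjusted p of all the relatives (0.0928). It measured 9.00 and 8.93 (log2) with forskolin, against 9.12 and 9.13 without it, and the groups did not overlap. The difference was -0.16 ± 0.04 (log2, SE), and the other Pdk2 probe set gave -0.06 (limma adjusted p = 0.506). Under median centring of the arrays the first was called lower (limma adjusted p = 0.0496; range over all alternatives 0.0496 to 0.265). Pdk3 differed by -0.04 on chip A and -0.03 on chip B. Both Pdk1 probe sets lay below the filter, with differences of -0.05 and 0.15.

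**Figure D3:**
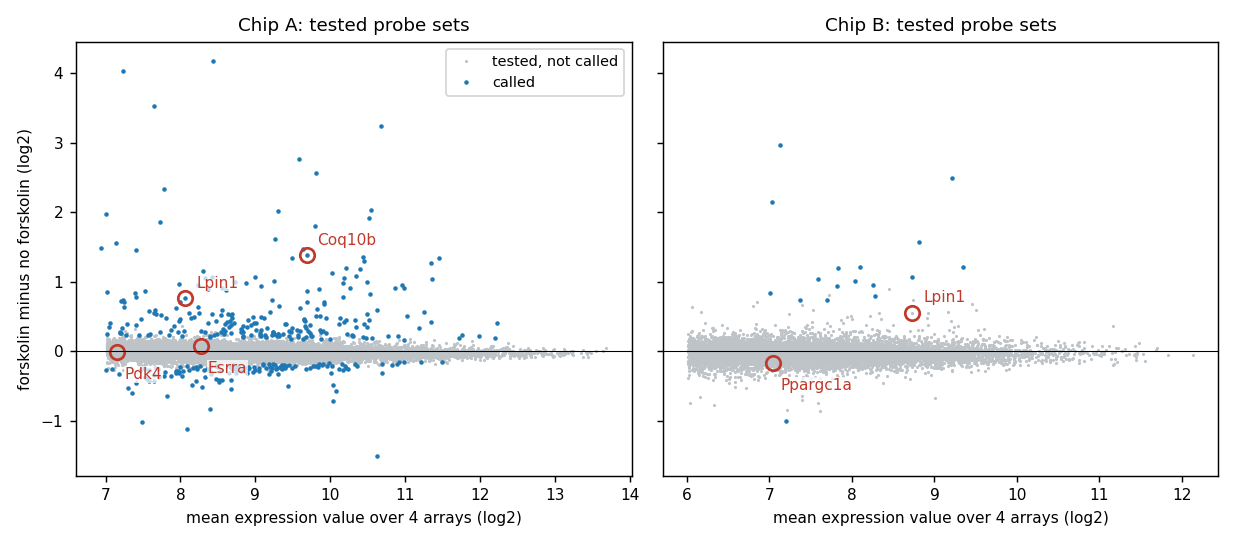
Mean expression value over 4 arrays (log2) against the difference between forskolin and no forskolin (log2) for every tested probe set, with called probe sets in blue and the tested probe sets of the 5 genes ringed in red. Coq10b and Lpin1 lie among the called rises of chip A, Lpin1 on chip B is ringed but not called, and Pdk4, Esrra and Ppargc1a lie in the grey band around 0.

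The wider pathways were counted through 6 lists holding 157 genes, which were fixed with earlier results of these data known. Of these genes, 135 were tested, each through the brightest of its tested probe sets, with chip A taken before chip B. Over all 11007 tested genes, 1.45% were called higher and 0.945% lower by limma, 5.15% were higher and 9.01% lower at an unadjusted p under 0.05, and the median difference was -0.02 (log2). Of 26 tested PGC-1 coactivators and partner factors, 1 rose, 0 fell and 25 were not called, with a median of -0.00 and an unadjusted p under 0.05 in 2 higher and 2 lower genes. The gene that rose was Mef2d, a MADS-box transcription factor of muscle and neurons. It measured 9.59 and 9.64 (log2) with forskolin, against 9.39 and 9.29 without it, a difference of 0.27 ± 0.05 (limma adjusted p = 0.0147). Its other probe set rose by 0.53. The call of the brightest one was lost without forskolin replicate 2 of chip A (limma adjusted p = 0.0742) and with the replicate number as a block (0.0816), with a range over all alternatives of 9.12e-04 to 0.0816.

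Of 31 tested genes known as targets of PGC-1, 2 rose, 0 fell and 29 were not called, with a median of -0.02 (log2). The unadjusted limma p was under 0.05 in 3 higher genes (9.68%, against 5.15% of all tested genes) and 2 lower (6.45%, against 9.01%). Nothing is read from so few genes. Vegfa, which encodes a growth factor for blood vessels, measured 9.85 and 9.92 (log2) with forskolin, against 9.44 and 9.48 without it. It rose by 0.43 ± 0.04 (limma adjusted p = 5.34e-04), and its other called probe set also by 0.43. Gdf15, which encodes a hormone released under cellular stress, measured 7.51 and 7.64 with forskolin, against 6.90 and 6.96 without it, and rose by 0.64 ± 0.06 (limma adjusted p = 3.49e-04). Neither of the genes that rose encodes a mitochondrial protein. The mean of Gdf15 without forskolin (6.93) was below the filter (7.02), so it was tested only because its forskolin arrays were brighter, and the size of its rise is uncertain. With the filter at the 50th percentile Gdf15 was not tested and 1 target rose.

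Of 16 tested genes of coenzyme Q synthesis and handling, 0 were called by limma, with a median of -0.02 (log2) and an unadjusted p under 0.05 in 0 higher genes and 1 lower, or 6.25% of the list, against 9.01% of all tested genes. The smallest p-values belonged to Coq5, a methyltransferase of the pathway, at -0.11 (limma adjusted p = 0.275), and Coq6, a hydroxylase, at -0.11 (0.320). The highest difference in the list, which leaves out Coq10b, was 0.05. Of 26 tested genes of the lipin family and glycerolipid synthesis, 1 rose and 0 fell, with a median of 0.01. The unadjusted limma p was under 0.05 in 2 higher genes (7.69%, against 5.15% of all tested genes) and 1 lower (3.85%, against 9.01%). Etnk1, the kinase that starts phosphatidylethanolamine synthesis from ethanolamine, measured 10.00 and 10.10 with forskolin, against 9.70 and 9.81 without it. It rose by 0.29 ± 0.05 (limma adjusted p = 0.0190) on chip A, and on chip B it measured 0.07 without a call. Its call was lost without forskolin replicate 2 of chip A (limma adjusted p = 0.0889; range over all alternatives 3.80e-04 to 0.0889).

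Of 14 tested genes of the pyruvate dehydrogenase complex and its switches and of 24 of fatty acid oxidation, 0 were called by limma, with medians of -0.03 and -0.04 (log2). Each list had an unadjusted p under 0.05 in 0 higher and 3 lower genes, or 21.4% and 12.5% lower, against 9.01% of all tested genes, and nothing is read from so few genes. Besides Pdk2, the smallest p in the first list was that of Mpc1, a subunit of the mitochondrial pyruvate carrier, at -0.11 (limma adjusted p = 0.131). In the second it was Acsl6, which links fatty acids to coenzyme A, at -0.16 (0.147), and Echs1, an enzyme of the beta-oxidation spiral, at -0.13 (0.156). The highest difference in the fatty acid oxidation list was 0.03.

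**Figure D4:**
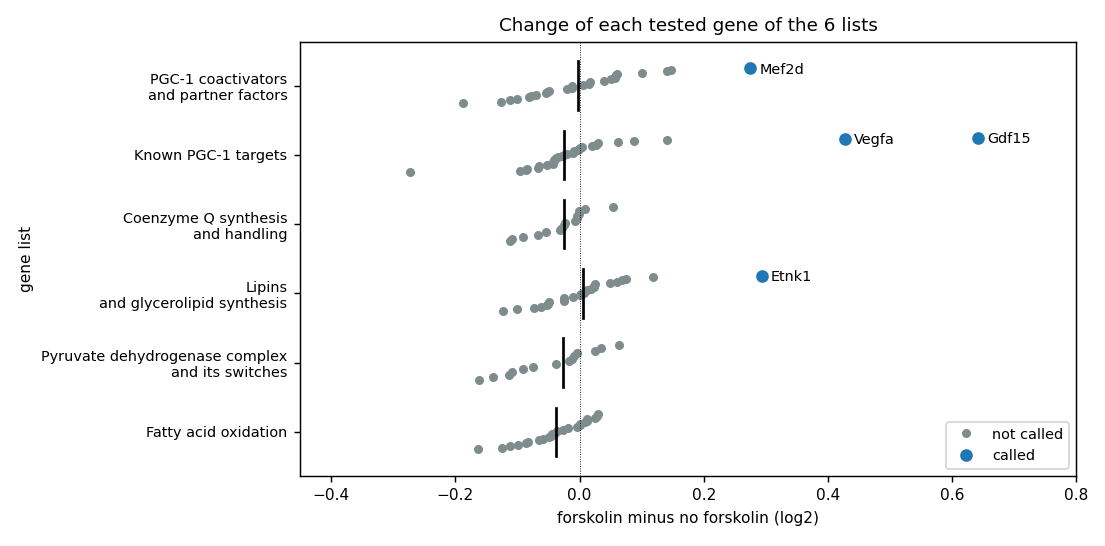
Difference between forskolin and no forskolin (log2) of every tested gene in the 6 lists; each point is a gene, blue points were called by limma, and the black bar is the median of the list. The called genes are Mef2d, Vegfa, Gdf15 and Etnk1, all to the right, and the medians lie between -0.04 and 0.01.

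The genes whose levels moved most like each probe set were found by the Euclidean distance between mean-centred log2 values over the 4 arrays of the chip. For Coq10b they were Rgs2 (distance 0.108), Rhob (0.125), Bhlhe41 (0.132), Midn (0.136) and Gata2 (0.158), among 8006 genes. These genes had differences of 1.27 to 1.46 (log2), against 1.38 for Coq10b. For Lpin1 on chip A they were Zrsr2-ps1 (0.052), Ppp1r15a (0.072), Zfand2a (0.072), Azin1 (0.085) and Bhlhe40 (0.108). For Lpin1 on chip B they were Maff (0.058), Rnf19b (0.10), Nabp1 (0.102), Mex3b (0.116) and Dyrk2 (0.116), among 4650 genes. With 2 arrays a group the measure mostly reflects the size of the difference. For Pdk4 on chip A they were Pccb (0.007), Uvrag (0.008), Ctbp2 (0.008), Tbc1d1 (0.010) and Dis3l (0.010), and for Esrra they were Snrpn (0.009), Mecom (0.010), Epha2 (0.013), Nfia (0.013) and Ckb (0.014). For the tested Ppargc1a probe set they were F8 (0.013), Tlr2 (0.055), Lhfpl4 (0.072), Bcl6b (0.077) and Zpbp2 (0.077). Among the genes nearest to Coq10b and to Lpin1 on chip A, Rgs2, Zrsr2-ps1 and Bhlhe40 averaged below the filter without forskolin. They were compared only because their forskolin arrays were brighter, so the size of their rises is uncertain.

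Genes known to respond to cyclic AMP were read as a check of the labels. Nr4a1 measured 10.89 and 11.06 (log2) with forskolin, against 8.11 and 8.30 without it, and Crem rose by 0.88 on its tested probe set of chip A and by 2.49 and 2.15 on those of chip B, the second of which lay below the filter without forskolin. Of 2 tested Fos probe sets, 1 was called, at 9.34 and 9.17 with forskolin, against 5.14 and 5.30 without it. It passed the filter only through its forskolin arrays, so the size of its rise is uncertain. Array medians spanned 8.15 to 8.17 (chip A) and 6.77 to 6.79 (chip B). Of 12 markers of the adrenal medulla on the arrays, 10 passed the filter, Th and Chga among them, while Dbh and Slc18a1, which encode dopamine beta-hydroxylase and a vesicular monoamine transporter, did not. The summed linear level of those on chip A was 18352 and 18507 with forskolin, against 15998 and 16539 without it, and Phox2a was the marker called. Of 8 markers of fat and muscle, tissues where the 5 genes are best known, only Adipoq passed the filter, and their summed level was 459 and 460 with forskolin, against 460 and 443 without it. Markers of other cell types passed it too, with 0 called: 1 of 4 for glia (Gfap), 2 of 5 for adrenal cortex (Cyp11a1 and Cyp21a1) and 2 of 4 for blood and endothelium (Cd68 and Hbb). Passing the filter therefore does not by itself identify a cell type. The fibroblast sum was 4801 and 4897 with forskolin, against 4725 and 4767 without it, with 3 of 7 markers above the filter. The part of these shifts in the results was not tested, and in bulk RNA a change in the share of a cell type cannot be told apart from a change in RNA per cell.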

How the data were processed

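The authors deposited 1 table of processed log2 values per chip, with a value for each probe set on each array. Their background correction, probe summary and array scaling are unstated in the sources used here, and base 2 was inferred from the range of the values. Gene symbols came from GEO's annotation of the chips, updated by gene number to RefSeq (GRCr8): on chip A 12783 probe sets had a single symbol, 312 several and 2771 none, and chip B had 7564, 100 and 7612.

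Array medians of a chip differed by under 0.1 (log2), so the authors' scaling was kept. Only probe sets whose mean linear value reached the 30th percentile of their chip were tested. Each chip had its own two-sided fit in limma 3.58.1 (R 4.3.3; lmFit and trended eBayes), with Benjamini-Hochberg adjustment over all its tested probe sets. SE and 95% intervals are limma's moderated ones. Probe sets below the filter were described from a fit without it. The number of arrays limits the precision. The fit was tested on simulated data.

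The genes and lists were chosen with earlier results of these data known. The genes named are all probe sets of the 5 genes, their 10 listed relatives (Esrrg was not found), every called list gene or otherwise the 2 with the smallest p, the 5 nearest genes of each tested probe set, the cell type markers, and Fos, Nr4a1 and Crem; genes outside this rule are said to be named after their values were seen. Alternatives were quantile normalization, median centring, no filter, a filter at the 50th percentile, eBayes without a trend, the replicate number as a block, each array left out, and for lists the probe set with the smallest p.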

Additional observations from a re-analysis of the deposited data

How the results depend on the processing

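All 82 recomputed differences of the 9 probe sets moved by less than the spread between arrays, but for most alternatives this was fixed in advance. The filters, the trend and the replicate block cannot change a difference. Leaving out 1 of 2 arrays always moves it by less than that spread. Only quantile normalization and median centring could have moved it further. The recomputed differences of Coq10b ranged from 1.33 to 1.42 (log2). Those of Lpin1 ranged from 0.75 to 0.77 on chip A and 0.44 to 0.68 on chip B. Lower calls on chip A numbered 277 with median centring and 46 with the replicate block, against 140, and chip B gave 27 higher and 3 lower under quantile normalization, against 16 and 1, and 2 lower with the block. With 1 array left out, chip A had 168 to 257 higher and 83 to 192 lower, and chip B 10 to 41 higher and 0 to 57 lower. Among the lists, the PGC-1 partner count was 0 with the replicate block (Mef2d, adjusted p = 0.0816), the count of PGC-1 targets was 1 with the filter at the 50th percentile, which leaves Gdf15 untested, and the pyruvate dehydrogenase list had 1 lower with median centring. With 1 array left out the PGC-1 partner and the lipin counts of higher genes ranged from 0 to 1 and the count of PGC-1 targets stayed at 2. The causes were not tested. No label says that a replicate number marks a shared culture or day, so the numbers were not taken to pair the arrays; the deviations of same-numbered arrays from their group means correlated across probe sets at r = 0.003 on chip A and 0.197 on chip B.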

Other observations

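Probe sets of one gene did not always give the same size. Eci1, an isomerase of fatty acid oxidation, measured 7.46 and 7.42 (log2) with forskolin, against 7.26 and 7.18 without it, on its dimmer probe set (limma adjusted p = 0.0588), while its brighter one overlapped between the groups (0.726). Acaa2, a thiolase of the same pathway, differed by -0.29 on chip B (limma adjusted p = 0.919) and measured 8.92 and 9.05 with forskolin on chip A, against 8.96 and 8.98 without it. Crtc3, a CREB coactivator, differed by 0.06 on chip A (limma adjusted p = 0.597) and by -0.25 on chip B (0.907), where its groups did not overlap. These genes were named after their values were seen.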
